A study of Rattus norvegicus with 12 samples.

Results

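The genes of cholesterol synthesis, uptake and efflux were examined in the fibroblast-like synoviocytes (FLS) of adjuvant arthritis (AA) rats treated with taurochenodeoxycholic acid (TCDCA), a taurine-conjugated bile acid. A list of 31 gene symbols was matched by name to the gene records of the deposited table, and where a name had several records the one of highest mean was taken. Of the 31 genes, 29 had a record among the 22442 records of the table. No record carried the names Acat2 and Tm7sf2, which are not analysed here. The list holds 18 genes of synthesis, 5 genes of SREBP control, 4 genes of uptake, transport and esterification, and 4 genes of efflux and its LXR regulators.

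The study compared 12 libraries of poly(A) RNA, 3 in each of 4 groups. All groups were FLS of AA rats, which are male Sprague Dawley rats injected with complete Freund's adjuvant, and neither a genetic change nor the age of the animals is given. The cells grew out of synovial tissue and were used at passage 3. The FCA cells were kept for 12 h in DMEM alone, without TCDCA. The treated cells received TCDCA at 10 µM (AT10), 1 µM (AT1) or 0.1 µM (AT01) for the same time. Cells of healthy rats are not analysed here, so no group shows the level without arthritis. The medium of growth held fetal bovine serum, which brings cholesterol to cells. The methods describe the 3 libraries of a group as repeats, without naming separate animals or cultures, so the p-values measure the spread between these libraries, which may be technical.

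Cells make cholesterol from acetyl-CoA through mevalonate, squalene and lanosterol, and they also take it up in lipoproteins that are broken down in lysosomes. When the membrane of the endoplasmic reticulum is low in cholesterol, SCAP carries the SREBP transcription factors to the Golgi, where they are cleaved and then switch on synthesis and uptake genes, while the INSIG proteins hold SCAP back when sterol is plentiful. Oxysterols, which appear when sterol is in excess, activate the LXR receptors, which switch on the efflux pumps ABCA1 and ABCG1. Bile acids are themselves made from cholesterol, mainly in the liver.

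Promoters of the synthesis and SREBP genes often hold a CCAAT box, the site of NF-Y, a factor that works beside SREBP. In the RefSeq promoters of rat build GRCr8, taken as the 250 bases before the gene start, 24 of the 29 genes with a record were matched by symbol. The letters CCAAT stood on either strand in 17 of the 24 (70.8%) and in 34.3% of all 27457 promoters. By role, they stood in 11 of 13 synthesis genes, 4 of 5 SREBP control genes, 2 of 3 transport genes and 0 of 3 efflux and LXR genes. The E-box CACGTG, searched on both strands, was in 4 of the 24 (16.7%), namely those of Sc5d, Insig1, Scap and Abca1, and in 5.79% of all promoters. A strict spelling of the sterol regulatory element, searched on both strands, was in 0 of the 24 and in 0.215% of all promoters. These matches describe the letters of the windows only, and none of these motifs contains another. The 3 promoters printed here belong to Ebp, Idi1 and Msmo1, the synthesis genes whose 3 AT10 values all lay above the 3 FCA values. They were chosen after the values were seen, and capitals mark CCAAT or its reverse complement. They lie at chrX:16971212-16971461 on the + strand, chr17:66547525-66547774 on the - strand and chr16:29746863-29747112 on the + strand.
Ebp: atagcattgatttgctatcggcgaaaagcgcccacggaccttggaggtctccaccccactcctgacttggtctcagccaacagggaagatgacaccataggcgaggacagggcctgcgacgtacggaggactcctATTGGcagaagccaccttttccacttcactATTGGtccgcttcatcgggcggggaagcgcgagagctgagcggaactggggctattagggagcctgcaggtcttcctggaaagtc
Idi1: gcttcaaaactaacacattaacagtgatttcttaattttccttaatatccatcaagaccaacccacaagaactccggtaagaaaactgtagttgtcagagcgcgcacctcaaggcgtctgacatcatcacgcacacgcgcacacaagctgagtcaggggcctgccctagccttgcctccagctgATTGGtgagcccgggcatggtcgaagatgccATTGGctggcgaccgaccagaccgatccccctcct
Msmo1: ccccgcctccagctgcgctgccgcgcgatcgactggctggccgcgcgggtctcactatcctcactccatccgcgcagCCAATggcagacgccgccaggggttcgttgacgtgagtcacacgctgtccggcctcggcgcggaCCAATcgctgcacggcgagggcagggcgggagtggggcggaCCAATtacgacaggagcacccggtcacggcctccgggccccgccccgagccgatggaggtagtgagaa
Ebp and Idi1 each held 2 such boxes in this window, and Msmo1 held 3, all within the window shown.

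The values are FPKM, fragments scaled for the exon length of the gene and for the reads of the library, so levels of different genes can be set side by side. Read counts are not used here, and the counting error behind a single FPKM value is unknown. Library totals ran from 284210 to 309696 FPKM, and the libraries correlated with each other at r between 0.926 and 0.951 on the log2 scale. The cells carried the markers of their label, with a record for 9 of the 11 synovial fibroblast markers. These summed to between 3686 and 5575 FPKM, most of it from Vim, Col3a1 and Col1a1. The endothelial markers summed to at most 0.21 FPKM and the macrophage markers to between 5.75 and 22.0 FPKM. Most of the macrophage sum was Cd14, at 3.6 to 18.82 FPKM, and Cd68 had 1.66 to 2.91 FPKM. Csf1r and Lyz2 had means below 1 FPKM, and Adgre1 and Mrc1 were at or near 0.

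The genes were expressed in every library at levels that spanned more than 2 orders of magnitude. Npc2, which binds cholesterol in the lysosome, had the highest mean over the 12 libraries with 120.5 FPKM, followed by Msmo1, which oxidises a methyl group of the sterol ring, with 50.1 FPKM. Next came Nr1h2, which encodes LXR beta, with 36.9 FPKM and Fdps, the synthase of farnesyl diphosphate, with 24.2 FPKM. Scap, the escort of SREBP, had a mean of 22.9 FPKM. At the other end stood the efflux pump Abcg1 with 0.678 FPKM and the sterol carrier Stard4 with 0.575 FPKM. Both were below the minimum mean of 1 FPKM for a test, so 27 genes were tested. The plot of levels by role shows that for most genes the 4 groups fell on the same part of the axis.

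**Figure D1:**
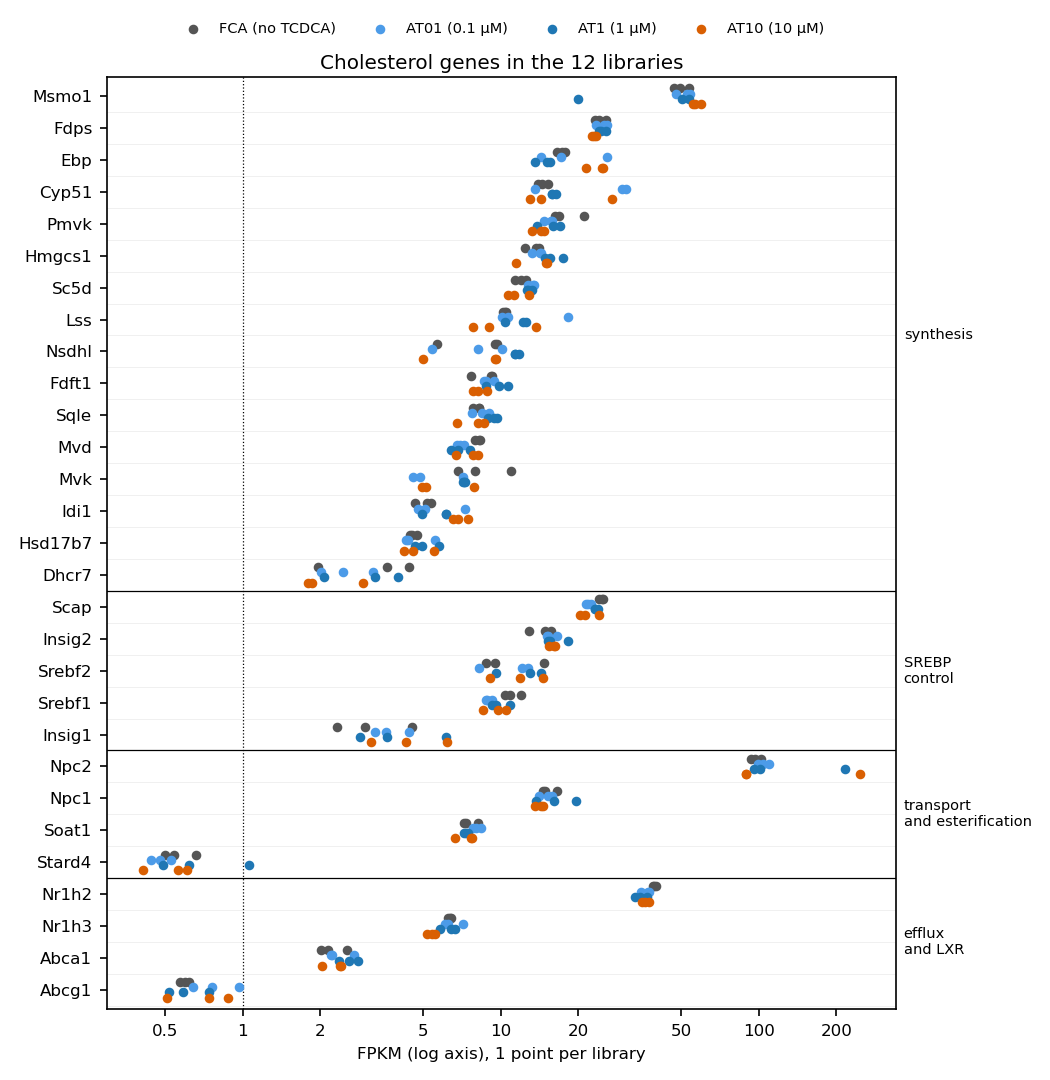
FPKM (log axis) of the 29 genes with a record, 1 point per library, in rows by role, with grey points for FCA and blue and orange points for the 3 doses of TCDCA; the dotted line marks 1 FPKM. Most rows are tight, while Npc2 (89.26 to 247.04 FPKM), Cyp51 (13 to 30.70 FPKM) and Msmo1 (20.03 to 60.01 FPKM) hold libraries that stand apart from the others. Lss (7.79 to 18.23 FPKM, highest in AT01 replicate 1), Mvk, Nsdhl, Dhcr7, Insig1 and Stard4 also range over more than 2-fold.

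Summed by role, the synthesis genes reached 214.8 ± 4.05 FPKM in FCA, 226.6 ± 21.7 in AT01, 211.8 ± 14.7 in AT1 and 223.5 ± 12.7 in AT10 (mean ± SD, n = 3). The 5 SREBP control genes summed to 64.4 ± 2.89, 61.3 ± 3.33, 66.2 ± 4.85 and 63.9 ± 3.40 FPKM in the same order. The group means of both sums differed by about the spread between libraries of 1 dose or less. The sums of the 4 efflux and LXR genes were 48.7 ± 0.634, 46.3 ± 1.41, 44.4 ± 1.87 and 44.9 ± 1.19 FPKM, and all 9 TCDCA libraries (43.13 to 47.74) lay below the 3 FCA libraries (47.96 to 49.13). Nr1h2 made up most of that sum, and Nr1h3, Abca1 and Abcg1 each overlapped between the TCDCA and FCA libraries. The transport sums were 121.3 ± 3.14, 128.0 ± 5.45, 162.5 ± 70.8 and 164.0 ± 91.8 FPKM, where the large SDs of AT1 and AT10 came with 1 high Npc2 value in each.

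None of the 27 genes tested passed in any comparison. With limma, 0 of 27 had a Benjamini-Hochberg adjusted p under 0.05 in AT10, AT1 or AT01 against FCA, where 0.172%, 0.0947% and 0.0947% of the 11611 records tested did. Likewise 0 of 27 met the study's own criterion, a change of more than 2-fold at an unadjusted p under 0.05, which 0.706%, 0.62% and 0.758% of all records met. At backgrounds as low as these, less than 1 gene in 27 would be called at the share of all records, so the absence of calls does not set the list apart. The comparisons between doses also called 0 of 27 by adjusted p (0.258% of all records for AT10 against AT1, 0.0689% for AT10 against AT01 and 0.129% for AT1 against AT01), and 0 of 27 by the study's criterion (0.594%, 0.672% and 0.568% of all records in that order). An F test over the 4 groups called 0 of 27 and 0.0431% of all records. At an unadjusted p under 0.05 the F test counted 2 of 27 genes (7.41%) and 8.57% of all records. The 2 genes were Ebp (adjusted p = 0.544, limma) and Nr1h3 (adjusted p = 0.569, limma).

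The precision of the fold changes is given by the 95% intervals, all on the scale of log2(FPKM + 1). In AT10 against FCA the interval lay within 2-fold in either direction for 23 of 27 genes, the others being Mvk, Dhcr7, Insig1 and Npc2. In AT1 it did so for 25 genes, without Msmo1 and Npc2, and in AT01 for 25, without Mvk and Cyp51. The median half-width of the interval was 0.24, 0.22 and 0.23 on the log2 scale in the 3 comparisons. The median log2 fold change of the 27 genes was -0.05 in AT10 (11 higher, 16 lower), 0.10 in AT1 (16 higher, 11 lower) and 0.04 in AT01 (18 higher, 9 lower), where all records had -0.01, 0.02 and 0.00. The 3 comparisons share the FCA libraries. The plot of fold changes shows how close to 0 most genes lay at each dose.

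**Figure D2:**
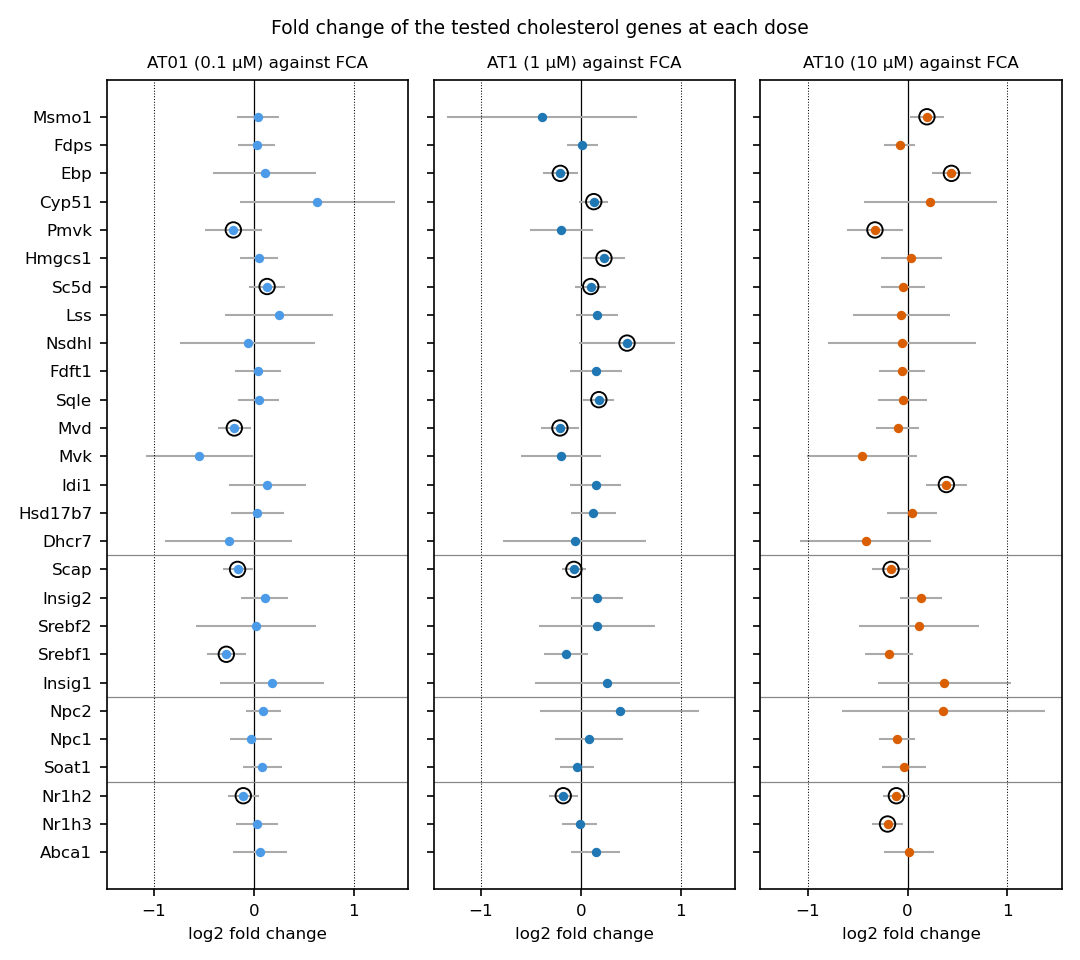
Log2 fold change, on the log2(FPKM + 1) scale, of the 27 genes tested in AT01, AT1 and AT10 against FCA (points) with the 95% interval (lines); circles mark genes whose 3 treated libraries do not overlap the 3 FCA libraries, and dotted lines mark a 2-fold change. No point lies past 2-fold, and the circled genes include Ebp at 0.44 in AT10 and -0.20 in AT1.

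Groups were also compared by whether their 3 libraries overlapped. In AT10, 7 of 27 genes (25.9%) had no overlap with FCA, against 19.9% of all records, and 5 of 27 had an unadjusted p under 0.05, against 11.9% of all records. In AT1, 9 of 27 (33.3%) had no overlap, against 19.9% of all records, and 5 of 27 had an unadjusted p under 0.05, against 11% of all records. In AT01, 6 of 27 (22.2%) had no overlap, against 14%, and 4 of 27 had an unadjusted p under 0.05, against 6.6%. These shares of the genes differ from the background by a few genes at most. At 3 libraries per group an exact permutation test, two-sided, cannot go below 0.1, and every gene without overlap had that value.

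Among the early enzymes of synthesis, which lead from acetyl-CoA to the isoprenoid units, Idi1 and Hmgcs1 each had 1 dose whose values all lay above FCA. Idi1, the isomerase of isopentenyl diphosphate, had 4.66, 5.36 and 5.19 FPKM in FCA and 7.47, 6.81 and 6.56 FPKM in AT10. All 3 AT10 values lay above FCA, while AT1 (6.13, 4.96 and 6.16 FPKM) and AT01 (4.80, 5.10 and 7.30 FPKM) overlapped it. Against FCA, AT10 differed by 0.39 on the log2 scale (SE 0.083, adjusted p = 0.187, limma). Hmgcs1, the synthase of HMG-CoA, had 14.04, 12.46 and 13.77 FPKM in FCA and 15.54, 14.83 and 17.52 FPKM in AT1. Its 3 AT1 values lay above FCA, with a log2 fold change of 0.23 (SE 0.086, adjusted p = 0.437, limma), and AT10 (15.17, 15.01 and 11.45 FPKM) spread over both sides of FCA.

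The enzymes that act on mevalonate after it is made had lower values at some doses. Pmvk, the kinase of phosphomevalonate, had 16.24, 16.77 and 21.08 FPKM in FCA, 14.40, 14.67 and 13.22 in AT10, 16.96, 15.93 and 13.90 in AT1, and 15.73, 15.82 and 14.67 in AT01. The AT10 and AT01 values all lay below FCA, and FCA replicate 3 was the highest of the 12. The log2 fold changes were -0.33 in AT10 (SE 0.113, adjusted p = 0.371, limma) and -0.21 in AT01 (SE 0.114, adjusted p = 0.767). Mvd, the decarboxylase of mevalonate diphosphate, had 7.95, 8.30 and 8.22 FPKM in FCA, 6.82, 6.4 and 7.60 in AT1, and 7.19, 6.99 and 6.80 in AT01. Both lower doses lay below FCA, while AT10 (8.19, 7.85 and 6.70 FPKM) overlapped it. Its log2 fold changes were -0.21 in AT1 (adjusted p = 0.438, limma) and -0.20 in AT01 (adjusted p = 0.720). Mvk, the mevalonate kinase, had 7.93, 10.93 and 6.84 FPKM in FCA and 4.58, 7.16 and 4.88 FPKM in AT01, so the groups overlapped at a log2 fold change of -0.55 (SE 0.217, adjusted p = 0.720, limma). Fdps, which follows these steps, had 25.67, 24.16 and 23.29 FPKM in FCA, 23.03, 23.40 and 22.52 in AT10, 24.42, 23.99 and 25.53 in AT1, and 25.26, 25.85 and 23.41 in AT01. Each dose overlapped FCA, and its log2 fold changes were -0.08, 0.02 and 0.03 in AT10, AT1 and AT01.

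Of the enzymes that shape the sterol ring, Ebp had the smallest adjusted p-values of the list, and its differences ran in opposite directions at different doses. Ebp, a sterol isomerase, had 17.23, 17.69 and 16.57 FPKM in FCA, 24.74, 24.92 and 21.37 in AT10, 13.65, 15.16 and 15.52 in AT1, and 17.08, 25.91 and 14.37 in AT01. AT10 lay above FCA, AT1 lay below it, and AT01 had values on both sides. The log2 fold change was 0.44 in AT10 (SE 0.080, adjusted p = 0.149, limma) and -0.20 in AT1 (SE 0.070, adjusted p = 0.428, limma). The direct comparison of AT10 with AT1 gave 0.64 (SE 0.089, adjusted p = 0.127, limma), with no overlap. Ebp did not pass in any of them. Msmo1 had 49.66, 47.07 and 53.53 FPKM in FCA and 56.44, 55.73 and 60.01 in AT10, a log2 fold change of 0.19 without overlap (SE 0.070, adjusted p = 0.381, limma). Its AT01 values of 52.66, 54.21 and 47.89 FPKM overlapped FCA, and in AT1 it had 53.75 and 50.66 but 20.03 FPKM in replicate 3.

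Further sterol enzymes had higher values in AT1 or at both lower doses. Sqle, the squalene epoxidase, had 8.28, 7.81 and 8.23 FPKM in FCA and 9.41, 9.68 and 8.90 in AT1, a log2 fold change of 0.18 (SE 0.063, adjusted p = 0.428, limma). Nsdhl, a sterol dehydrogenase, had 9.66, 5.68 and 9.48 FPKM in FCA and 11.74, 11.40 and 11.39 in AT1, a log2 fold change of 0.46 (SE 0.194, adjusted p = 0.453, limma). Its AT10 values were 9.57, 9.55 and 4.99 FPKM and its AT01 values 8.17, 10.11 and 5.44, so each of these groups held 1 low library. Sc5d, a sterol desaturase, had 12.59, 11.35 and 11.95 FPKM in FCA, 12.75, 13.28 and 12.64 in AT1, and 12.73, 13.41 and 13.46 in AT01. The AT1 and AT01 values all lay above FCA, by 0.10 and 0.13 on the log2 scale (adjusted p = 0.553 and 0.763, limma), and AT10 (10.66, 12.88 and 11.24 FPKM) overlapped it. Dhcr7, the last of these enzymes in one branch of the path, ranged from 1.79 to 4.43 FPKM with overlap of every dose with FCA.

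**Figure D3:**
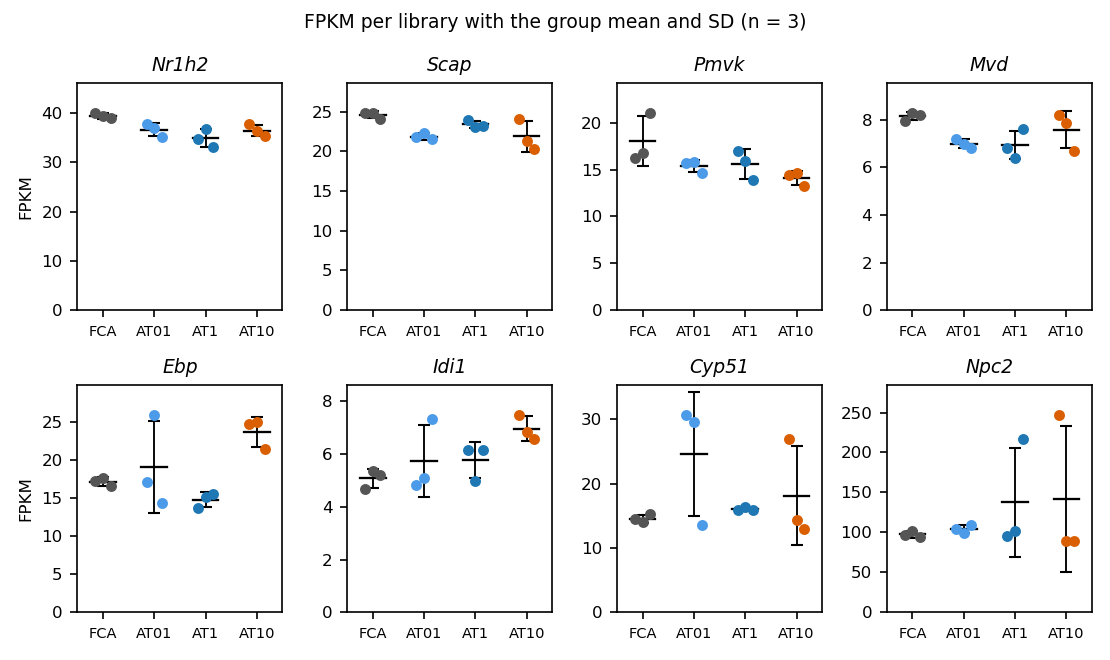
FPKM of 8 genes in each library (points) by group, with the group mean and SD (bars, n = 3); each axis starts at 0. Nr1h2 and Scap are lower in all 9 TCDCA libraries than in FCA, Ebp is higher in AT10 and lower in AT1, and the libraries of Cyp51 and Npc2 lie at 2 levels.

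A pair of genes fell into 2 levels that did not follow the groups. Cyp51, the demethylase of lanosterol, had 14.47, 13.98 and 15.24 FPKM in FCA and 15.86, 16.37 and 15.86 in AT1. These AT1 values all lay above FCA, by 0.13 on the log2 scale (SE 0.058, adjusted p = 0.458, limma). In AT10 Cyp51 had 26.98, 14.40 and 13 FPKM and in AT01 30.70, 29.67 and 13.54 FPKM. Npc2 had 97.16, 102.44 and 93.84 FPKM in FCA and 103.97, 99.90 and 109.44 in AT01. In AT10 it had 247.04, 89.26 and 89.51 FPKM and in AT1 95.92, 101.48 and 216.48 FPKM. The high level of Cyp51 was held by AT10 replicate 1 and AT01 replicates 1 and 2, and that of Npc2 by AT10 replicate 1 and AT1 replicate 3, so AT10 replicate 1 was the library they had in common. The widest gap between the sorted values was 0.69 on the log2 scale for Cyp51 and 0.98 for Npc2. Records with such a gap (at least 0.5, wider than either level and with at least 2 libraries on each side, a definition made after the values were seen) made up 2 of 27 genes (7.41%) and 8.34% of all records. Each of the 2 records had 1 assembled transcript. The log2 fold change of Cyp51 in AT01 against FCA was 0.64 (SE 0.313, adjusted p = 0.740, limma), and without AT01 replicate 3 it was 1.00. The mean of Npc2 in AT10, 142 ± 91.0 FPKM, therefore stood for no library of that group. Without AT10 replicate 1 its log2 fold change went from 0.36 to -0.13.

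Of the 5 genes of SREBP control, 0 were at an unadjusted p under 0.05 in AT10 and AT1 against FCA and 2 in AT01, Srebf1 and Scap. The median size of their log2 fold changes, in either direction, was 0.17, 0.16 and 0.16 in AT10, AT1 and AT01, where that of all records was 0.13, 0.13 and 0.12. Scap had 24.82, 24.88 and 24.13 FPKM in FCA, 24.02, 21.27 and 20.36 in AT10, 23.90, 23.13 and 23.22 in AT1, and 21.75, 22.34 and 21.50 in AT01. All 9 TCDCA values lay below FCA, the nearest being 24.02 against 24.13 FPKM. Against FCA it differed on the log2 scale by -0.17 in AT10, -0.07 in AT1 and -0.16 in AT01, with adjusted p-values from limma of 0.456, 0.6 and 0.720. A second record named Scap had 10.16, 13.59 and 5.30 FPKM in FCA and between 4.42 and 6.25 FPKM in the TCDCA libraries, so it overlapped in FCA replicate 3. Srebf1, which encodes SREBP-1, had 12, 10.88 and 10.37 FPKM in FCA and 9.25, 8.80 and 8.84 in AT01, a log2 fold change of -0.28 without overlap (SE 0.080, adjusted p = 0.690, limma). AT10 (9.81, 10.54 and 8.58 FPKM) and AT1 (9.61, 9.25 and 10.84 FPKM) overlapped FCA for this gene.

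Srebf2, which encodes SREBP-2, the main driver of the synthesis genes, had 9.48, 14.76 and 8.74 FPKM in FCA, 14.63, 9.10 and 11.85 in AT10, 9.56, 14.31 and 12.98 in AT1, and 12.79, 12.10 and 8.28 in AT01. Low and high values were mixed within every group, and its log2 fold changes lay between 0.02 and 0.16. Insig2, a retention protein of the endoplasmic reticulum, had 12.88, 14.84 and 15.67 FPKM in FCA, 16.12, 15.38 and 16.27 in AT10, 15.24, 15.51 and 18.27 in AT1, and 15.11, 16.57 and 15.21 in AT01. Each dose overlapped FCA, with log2 fold changes of 0.13, 0.17 and 0.11 in AT10, AT1 and AT01. Insig1, a target of SREBP that is itself an INSIG protein, had 2.99, 2.33 and 4.52 FPKM in FCA and 3.15, 6.18 and 4.30 in AT10. Its log2 fold change in AT10 was 0.37 with an interval from -0.30 to 1.04, the widest of the SREBP control genes at that dose.

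Of the genes of transport and esterification, Npc1, the partner of Npc2 in the lysosomal membrane, had 14.91, 14.64 and 16.58 FPKM in FCA and 14.65, 14.34 and 13.63 in AT10. It had 13.68, 16.06 and 19.62 FPKM in AT1 and 15.77, 14.04 and 15.29 in AT01, so each dose overlapped FCA. Of the libraries high in Npc2, AT10 replicate 1 had an Npc1 value within the range of FCA (14.65 FPKM), and AT1 replicate 3 had the highest Npc1 value of the 12 (19.62 FPKM). Soat1, which esterifies cholesterol for storage, ranged from 6.64 to 8.39 FPKM over the 12 libraries. Stard4 ranged from 0.41 to 1.06 FPKM and was not tested.

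Both LXR genes had small differences with tight replicates. Nr1h2 had 40.13, 39.46 and 38.95 FPKM in FCA, 37.76, 36.32 and 35.41 in AT10, 34.80, 36.80 and 33.14 in AT1, and 37.72, 37.10 and 35.14 in AT01. All 9 TCDCA values lay below all 3 FCA values. Against FCA they differed on the log2 scale by -0.11 in AT10, -0.18 in AT1 and -0.11 in AT01, with adjusted p-values from limma of 0.464, 0.428 and 0.783. Nr1h3, which encodes LXR alpha, had 6.41, 6.37 and 6.24 FPKM in FCA, 5.42, 5.58 and 5.17 in AT10, 5.80, 6.44 and 6.66 in AT1, and 7.16, 6.25 and 6.11 in AT01. AT10 lay below each of the other groups, by 0.20 against FCA (adjusted p = 0.323, limma), while AT1 and AT01 overlapped FCA. The LXR target Abca1 ranged from 2.02 to 2.81 FPKM, and its log2 fold changes were 0.02, 0.15 and 0.06 in AT10, AT1 and AT01, with overlap at each dose. The target Abcg1 ranged from 0.51 to 0.97 FPKM.

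When the 9 TCDCA libraries were set as 1 group against FCA, 0 of 27 genes had an adjusted p under 0.05 (0.0258% of all records) and 0 met the study's criterion (0.491%). At an unadjusted p under 0.05 stood 6 of 27 genes (22.2%), all of them lower, against 12% of all records, which were lower in 6.15% and higher in 5.86%. The 6 genes, picked by this p from the same values as the permutation test below, were Pmvk, Srebf1, Nr1h2, Mvd, Scap and Mvk. Their log2 fold changes were -0.24 for Pmvk (adjusted p = 0.346, limma), -0.20 for Srebf1 (adjusted p = 0.347), -0.13 for Nr1h2 (adjusted p = 0.353), -0.17 for Mvd (adjusted p = 0.374), -0.13 for Scap (adjusted p = 0.380) and -0.40 for Mvk (adjusted p = 0.392). Without FCA replicate 2, the highest of its 12 values, Mvk differed by -0.23, and without FCA replicate 3 Pmvk differed by -0.13. A two-sided permutation test, exact and limited to 0.00455 at 9 libraries against 3, gave p = 0.00909 for Nr1h2, 0.0136 for Pmvk, 0.0182 for Scap, 0.0227 for Srebf1, 0.0273 for Mvd and 0.0636 for Mvk, none of them adjusted. Only Nr1h2 and Scap had no overlap, which is 2 of 27 genes (7.41%) against 2.86% of all records, or 1.9% of all records counted in the lower direction. For Scap the lack of overlap was lost after median-of-ratios scaling of the libraries, and when its 2 records were summed.

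Among the markers of other cells, the smooth muscle gene Acta2 and the chondrocyte gene Acan were lower in the same libraries. Acan had 5.79, 4.89 and 4.91 FPKM in FCA and between 2.74 and 4.58 FPKM in the 9 TCDCA libraries, without overlap. Acta2, the smooth muscle actin that myofibroblasts also make, had 370.12, 317.43 and 263.19 FPKM in FCA and between 125.35 and 255.5 FPKM in the 9 TCDCA libraries, without overlap. The other 3 of the 4 smooth muscle markers with a record overlapped between FCA and TCDCA: Cnn1 had 15.01 to 25.01 FPKM, Des 7.76 to 21.82 FPKM and Myh11 3.37 to 6.01 FPKM over the 12 libraries. The sum of the 4 was 306.9 to 410.0 FPKM in FCA, 223.3 to 287.5 in AT01, 251.6 to 290.1 in AT1 and 158.9 to 302.8 in AT10, and most of it was Acta2. Of the synovial fibroblast markers, Thy1 was lower, with 151.7 to 157.89 FPKM in FCA and 112.46 to 146.29 in TCDCA. Fap was higher, with 10.99 to 12.3 FPKM in FCA and 12.49 to 16.37 in TCDCA. Neither overlapped, as in 2.86% of all records, and the other fibroblast markers with a record did overlap. Fewer cells of a type and less RNA per cell cannot be told apart in bulk RNA. The part of cells expressing Acta2, Acan, Thy1 or Fap in the values of Nr1h2 and Scap was not tested. The adipocyte markers summed to 27.0 to 43.3 FPKM and the chondrocyte markers to 4.66 to 9.75 FPKM. Both sums overlapped between FCA and TCDCA, as did the chondrocyte markers other than Acan.

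Between doses, 7 of 27 genes had no overlap in AT10 against AT1 (13.9% of all records), 4 in AT10 against AT01 (11.1%), and 4 when AT1 was set against AT01 (8.6%). At an unadjusted p under 0.05 stood 2, 1 and 1 of 27 genes, against 6.46%, 4.97% and 3.43% of all records. These were Ebp and Nr1h3 in AT10 against AT1, Nr1h3 in AT10 against AT01, and Nsdhl when AT1 was compared with AT01. Nr1h3 differed by -0.19 (SE 0.075, adjusted p = 0.748, limma) and -0.23 (SE 0.087, adjusted p = 0.867), and Nsdhl by 0.53 (SE 0.202, adjusted p = 1.00). Across the list, AT10 lay above AT1 for 8 and below it for 19 of 27 genes, with a median log2 fold change of -0.10, where 47.1% of all records were higher and their median was -0.01. With a library left out the median of the genes was between -0.15 (without AT10 replicate 1) and -0.06 (without AT1 replicate 3 or AT10 replicate 3).

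Single libraries held many of the extremes. AT10 replicate 3 had the lowest value of the 12 libraries for 11 of 27 genes (40.7%), where it had the lowest value for 10.7% of all records. These were Hmgcs1, Pmvk, Fdps, Sqle, Cyp51, Nsdhl and Hsd17b7 of synthesis, Srebf1 and Scap of SREBP control, Npc1 and Nr1h3. AT1 replicate 3 had the highest value for 6 of 27 genes (22.2%), namely Hmgcs1, Fdft1, Hsd17b7, Insig2, Npc1 and Abca1, and for 7.23% of all records. Most of the 11 genes belong to 1 pathway and are not independent of one another, and the counts were made after the values were seen. Without AT10 replicate 3 the median log2 fold change of AT10 against FCA went from -0.05 to -0.02. Without AT1 replicate 3 that of AT1 against FCA went from 0.10 to 0.01. The map of deviations shows both libraries as columns.

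**Figure D4:**
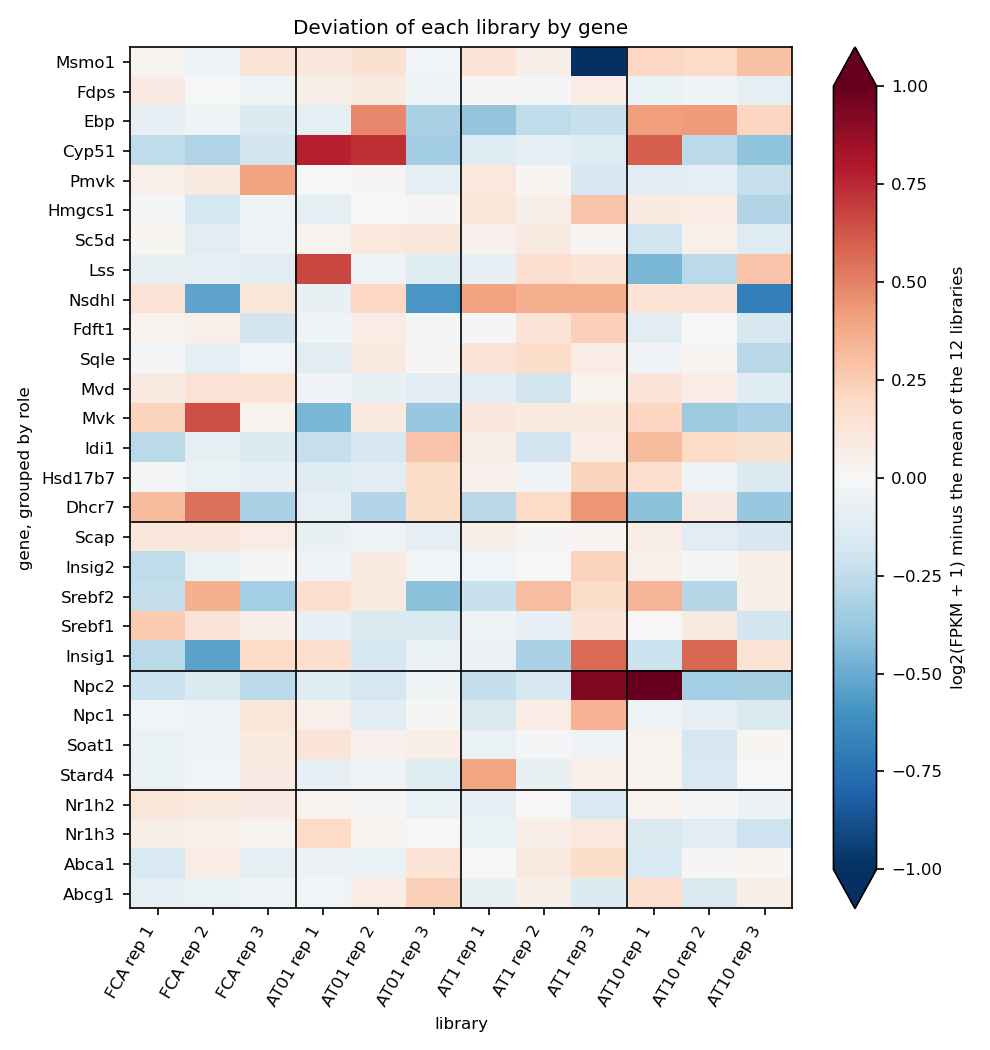
Deviation of each library (columns) from the mean of the 12 libraries for the 29 genes with a record (rows, by role), on the log2(FPKM + 1) scale, in red above and blue below the mean; colours end at 1 in either direction. AT10 replicate 3 is blue for most synthesis genes and holds the lowest value of 11 of the 27 genes tested, while Msmo1 in AT1 replicate 3 (20.03 FPKM) and Npc2 in 2 libraries stand out.

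Of the other genes of the pathway, 47 were listed, 44 had a record and 38 were tested. None was called by either criterion in any of the comparisons. At an unadjusted p under 0.05 stood 3 of 38 in AT10 against FCA (11.9% of all records), 3 in AT1 (11% of all records) and 2 in AT01 (6.6% of all records). In these 3 comparisons the shares of the list were below those of all records, by a few genes at most. The genes in AT10 were Mbtps2 (0.32), a protease that cleaves SREBP, and Cyp7b1 (0.46), an oxysterol hydroxylase, both higher, and Scarb2 (-0.40), a lysosomal membrane protein, on the log2 scale. In AT1 they were Mbtps1 (0.27), the protease that makes the first cut in SREBP, and Vldlr (0.31), a lipoprotein receptor, both higher, and the sterol transporter Stard3 (-0.16). In AT01 they were Gramd1a (-0.23), a sterol transporter, and Hsd3b7 (-0.29), an enzyme of bile acid synthesis. Their adjusted p-values from limma lay between 0.248 for Scarb2 in AT10 and 0.720 for Gramd1a in AT01. With the 9 TCDCA libraries as 1 group, 5 of 38 stood at an unadjusted p under 0.05, against 12% of all records. All 5 were lower (6.15% of all records), namely Stard3, Gramd1a, Scarb2, Pltp and Fads2. Only Gramd1a had no overlap (2.86% of all records). Between doses, 5 of 38 were at that p in AT10 against AT1 (6.46%) and 0 in AT10 against AT01 (4.97%). In AT1 against AT01 there were 3 (3.43%), and the F test counted 4 (8.57%).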

How the data were processed

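Poly(A) RNA of cultured rat FLS was sequenced in 12 libraries with a strand-specific kit, 3 in each of the FCA, AT10, AT1 and AT01 groups, which were taken from the sample titles. Alignment was done by the authors with HISAT2 and quantification with StringTie and Ballgown, and they deposited FPKM values per gene record to 2 decimals; edgeR and cutadapt are also named in the submitters' processing notes. The genome build is not given in the sources used here, and no scaling between libraries beyond FPKM is stated. Depth is not known from the values. The paper lists the reads of each library, with the most in AT01 replicate 3, but they were not used here and no counting interval is given. All 12 columns were used.

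A pseudocount of 1 was added to each FPKM before the log2. Records were tested where their mean reached 1 FPKM (11611 records), in limma 3.58.1 (trend) under R 4.3.3, with only the groups of that comparison in the fit, and p-values were adjusted by Benjamini-Hochberg over all of them. Records were called at an adjusted p under 0.05 or by the study's criterion (a log2 fold change past 1 at an unadjusted p under 0.05). This replaced the Ballgown test of the study, and a test in the manner of Ballgown was tried as an alternative. Single genes also had a two-sided exact permutation test. Figures and promoter searches used Python 3.11.15, pandas 2.3.3 and Matplotlib 3.10.9. The scripts were tested on simulated data.

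The genes, the list of other pathway genes and the cell type markers were chosen with earlier results of these data known. By rule, values were given in every library for genes called, for genes without overlap with FCA at 2 or more doses in the same direction (Nr1h2, Scap, Pmvk, Mvd and Sc5d), and for the 2 genes of highest mean in each role. Ebp, Idi1, Hmgcs1, Mvk, Sqle, Nsdhl, Cyp51, Srebf1, Srebf2 and Insig1 were named after their values were seen. Some genes of the pathway were not put on the lists and are not reported here. As alternatives, the pseudocount was set to 0.1, the filter was dropped or raised to 10 FPKM, the 12 libraries were fitted at once, the test was run Ballgown-style, without a variance trend or with the replicate number as a block, libraries were scaled by median of ratios, records were summed by gene name, and single libraries were left out in turn.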

Additional observations from a re-analysis of the deposited data

Results flagged for a closer look

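In 4 of 29 genes, 1 of the 9 TCDCA libraries lay apart from the others by Dixon's test, where chance flags about 1 in 20 such groups. AT1 replicate 3 held 3 of the 4: Msmo1 at 20.03 FPKM, below 47.89 to 60.01 FPKM in the others, Insig2 at 18.27 FPKM, above at most 16.57 FPKM, and Npc1 at 19.62 FPKM, above at most 16.06 FPKM. Stard4 in AT1 replicate 1 was at 1.06 FPKM, above at most 0.62 FPKM, and was too low to be tested. The 9 libraries hold 3 doses.

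For 3 genes the response differed between doses at an unadjusted p under 0.05 in the direct comparison of the doses, and none of these passed the adjustment. Ebp differed by 0.64 on the log2 scale between AT10 and AT1 (adjusted p = 0.127, limma, higher in 3 of 3 AT10 libraries). Nr1h3 was lower in 3 of 3 AT10 libraries than in AT1, by -0.19 (adjusted p = 0.748), and than in AT01, by -0.23 (adjusted p = 0.867). Nsdhl differed by 0.53 between AT1 and AT01 (adjusted p = 1.00, higher in 3 of 3 AT1 libraries), and by 0.31 without AT01 replicate 3. The causes were not tested.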

How the results depend on the processing

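None of the 27 genes was called under any of the 9 alternatives other than a library left out. Leaving out a library gave 0 to 1 genes called in AT01 against FCA and 0 to 1 in AT1 against AT01: without AT01 replicate 3, Cyp51 was called, at a log2 fold change of 1.00 against FCA in place of 0.64 (adjusted p = 0.0441, limma), since the libraries left in AT01 were both at its higher level. The median log2 fold change of the genes in AT1 against FCA was 0.014 to 0.136 with a library left out, lowest without AT1 replicate 3. That of AT10 against AT01 was -0.081 to 0.015, and that of AT1 against AT01 was -0.017 to 0.102, and 0.0015 over the genes with a mean of at least 10 FPKM. Reversed were Npc2 in AT10 against FCA (-0.13 without AT10 replicate 1, up to 0.60) and Msmo1 in AT1 against FCA (0.060 without AT1 replicate 3, down to -0.63). The SREBP control genes summed to 70.4 FPKM in place of 63.9 when both Scap records were added, and Scap then differed by -0.29 in TCDCA against FCA in place of -0.13. Genes without overlap between TCDCA and FCA went from 2 to 1 (Nr1h2) under median-of-ratios scaling and under summing by name. Genes at an unadjusted p under 0.05 numbered 3 to 6 in AT10 against FCA, 1 to 6 in AT1, 0 to 5 in AT01 and 2 to 6 in TCDCA over all alternatives. Of all records in AT10 against FCA, 82 met the study's criterion, and 147 did with a pseudocount of 0.1 and 45 with the Ballgown-style test. Pmvk in TCDCA against FCA went from -0.24 to -0.13 without FCA replicate 3, and Mvk from -0.40 to -0.23 without FCA replicate 2.

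Same-numbered libraries did not deviate together (18 pairs, r from -0.105 to 0.094, median 0.003), and the study calls the numbers repeats without saying what same-numbered libraries share, so pairing was not assumed. With the replicate number as a block, 0 of 27 genes were called in each comparison, 3, 2 and 2 genes were at an unadjusted p under 0.05 in AT10, AT1 and AT01 against FCA in place of 5, 5 and 4, and records called by adjusted p in AT10 against FCA went from 20 to 1.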
